A study of Mus musculus with 10 samples.

Results

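Mitochondrial and peroxisomal fatty acid oxidation was followed through 33 genes, chosen by symbol from the 40503 genes of the deposited gene table. They encode the carnitine shuttle, the acyl-CoA dehydrogenases, the later enzymes of the mitochondrial β-oxidation cycle, the electron transfer flavoprotein and its dehydrogenase, a pair of acyl-CoA thioesterases, and peroxisomal enzymes. RNA-seq libraries came from gonadal white adipose tissue, a visceral fat depot that surrounds the reproductive tract, of female C57BL/6 mice aged 12 weeks. The first group was 5 mice with a tamoxifen-inducible deletion of Med19 in adipose cells (KO 1, KO 4, KO 7, KO 8 and KO 17), which had 5 days of tamoxifen (100 mg/kg) and were sampled 14 days afterwards. The second group was 5 WT mice (WT 2, WT 9, WT 19, WT 86 and WT 89), and the labels do not say whether these received tamoxifen. Med19 is a subunit of Mediator, the complex that passes signals from transcription factors to RNA polymerase II. The sources used here name neither the Cre driver nor the deleted exons.

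Fatty acids are burned as acyl-CoA esters, which cannot cross the inner mitochondrial membrane. Carnitine palmitoyltransferase 1 moves a long-chain acyl group to carnitine, a carrier brings the acylcarnitine in, and carnitine palmitoyltransferase 2 remakes the acyl-CoA. Each turn of the cycle then consists of a dehydrogenation, a hydration, another dehydrogenation and a thiolysis that releases acetyl-CoA. Malonyl-CoA, the first intermediate of fatty acid synthesis, inhibits carnitine palmitoyltransferase 1, so synthesis and oxidation are balanced against each other. Peroxisomes shorten very long and branched chains. White adipocytes mainly store fatty acids as triglyceride and make or release them, and they hold fewer mitochondria than brown adipocytes.

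The libraries held 14441275 to 20179236 reads assigned to genes. Values are RPKM, reads scaled to gene length and library size, and come from the gene table unless transcripts are named. Levels of different genes are compared within that table, and the transcript table ranked some genes otherwise. Med19 RNA averaged 6.79 ± 0.85 RPKM in KO-labelled libraries and 6.70 ± 0.89 RPKM in WT libraries (SD, n = 5 each), a difference not detected by a 2-sided exact permutation test (p = 0.881, where the smallest p such a test allows is 0.0079). The fold between the groups had a limma 95% interval of 0.86 to 1.19. The libraries are therefore called KO-labelled throughout, and whether the counted reads fall outside the deleted part was not tested. White adipocyte markers were far lower in the KO-labelled libraries: 7 of the 8 tested fell, where 1.95% of all tested genes fell. Their summed levels were 5283 to 5543 RPKM in KO-labelled libraries and 13301 to 19338 RPKM in WT libraries. In bulk tissue, fewer adipocytes and less RNA of these genes per adipocyte cannot be told apart.

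Most of the fatty acid oxidation genes were not called. Cpt1a, Slc25a20, Acadl and Hadha rose in the KO-labelled libraries by 1.18-fold to 1.34-fold, and Acad11 fell, to 0.56 of its WT level (folds are on the log2(RPKM + 0.5) scale). Of the 33 genes, 32 had at least 0.5 RPKM in at least 5 libraries and were tested. The 4 that rose are 12.5% of those tested, where 4.00% of all 17038 tested genes rose. The 1 that fell is 3.12%, where 1.95% of all tested genes fell (limma, Benjamini-Hochberg adjusted p under 0.05). The other 27 tested members were not called, and 26 of the 32 had log2 changes within 0.25 of 0. Of the 32, 15 had a positive and 17 a negative log2 change. Their median log2 change was -0.0069, against 0.089 over all tested genes. All KO-labelled libraries were above all WT libraries for 3 members (9.38%, against 6.96% of all tested genes) and below them for 1 (3.12%, against 2.15%).

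The rises other than that of Cpt1a were narrow. Median-ratio scaling and quantile normalization each left 1 member higher and 1 lower, and lowered the median log2 change of all genes to 0.0091 and 0.024. Over all tested genes, median-ratio scaling called 103 higher and 417 lower, against 681 and 332 as deposited. Leaving out any 1 of the 10 libraries left 1 or 2 members higher, where Cpt1a was called each time, Hadha without WT 9 (log2 change 0.33) or WT 86 (0.34), and Acadl without KO 4 (0.41).

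**Figure D1:**
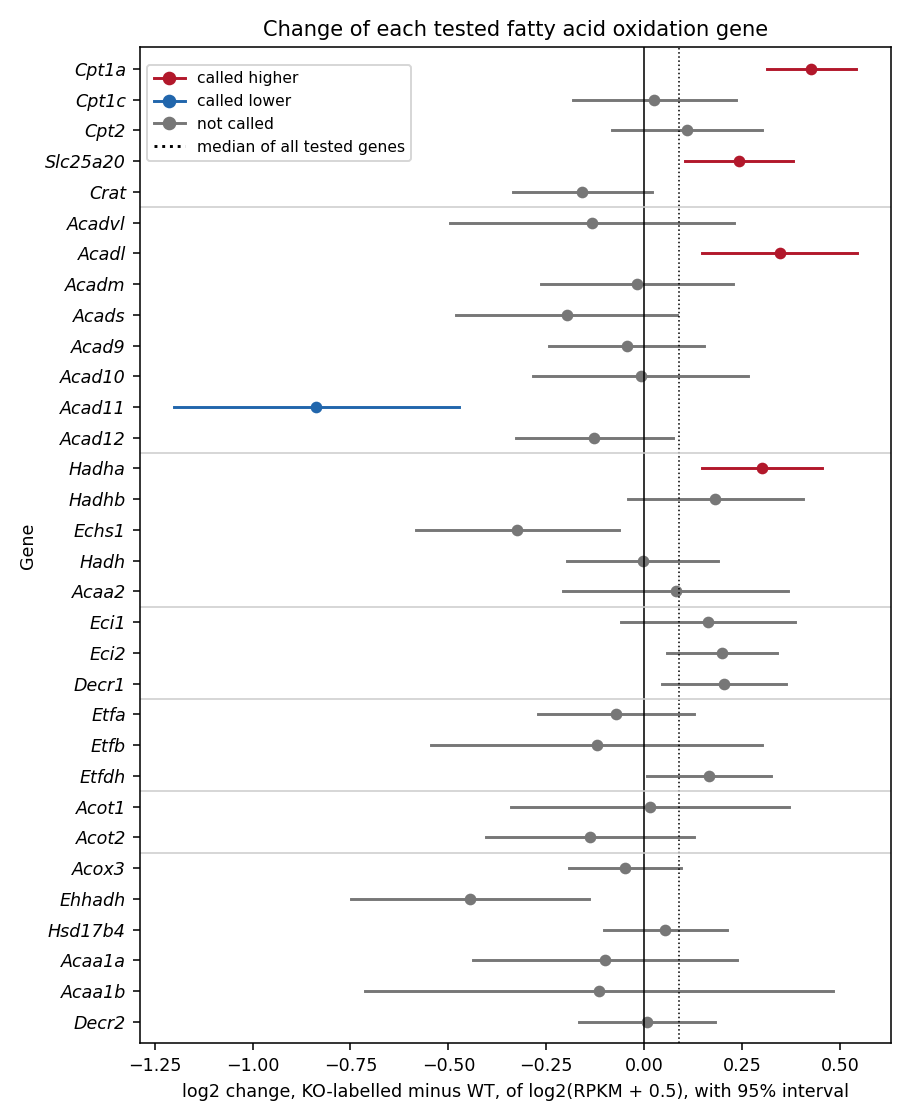
Log2 change (KO-labelled minus WT, on the log2(RPKM + 0.5) scale) of each of the 32 tested fatty acid oxidation genes, with limma's 95% interval, in the order of their roles. Cpt1a, Slc25a20, Acadl and Hadha are marked as called higher and Acad11 as called lower, and most other points lie within 0.25 of 0.

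The promoters of the 5 called genes are shown, 4 of them called higher and 1 called lower. Whether the 4 rises are linked was not tested. They come from RefSeq (mouse build GRCm38.p6), each 300 bases long and ending 50 bases after the annotated start, 5′ to 3′ on the strand of the gene. Of the 33 genes, 27 had such a window. Capitals mark a match to DR1, the element bound by peroxisome proliferator-activated receptors, which is AGGTCA repeated in the same direction after any 1 base, searched on both strands with up to 2 mismatches.
Cpt1a, chr19:3323051-3323350, plus strand: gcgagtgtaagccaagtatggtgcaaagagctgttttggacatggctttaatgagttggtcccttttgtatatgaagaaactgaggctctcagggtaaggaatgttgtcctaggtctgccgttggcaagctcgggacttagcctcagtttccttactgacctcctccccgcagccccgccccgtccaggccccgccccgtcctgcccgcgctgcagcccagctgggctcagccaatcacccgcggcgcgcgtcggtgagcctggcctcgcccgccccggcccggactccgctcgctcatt
Slc25a20, chr9:108661886-108662185, plus strand: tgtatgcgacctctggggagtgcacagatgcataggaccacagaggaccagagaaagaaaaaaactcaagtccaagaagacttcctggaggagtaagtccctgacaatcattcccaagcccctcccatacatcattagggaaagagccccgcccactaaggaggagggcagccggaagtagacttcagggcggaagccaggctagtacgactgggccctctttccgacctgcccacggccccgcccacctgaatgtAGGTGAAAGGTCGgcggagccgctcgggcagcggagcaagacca
Acadl, chr1:66863260-66863559, minus strand: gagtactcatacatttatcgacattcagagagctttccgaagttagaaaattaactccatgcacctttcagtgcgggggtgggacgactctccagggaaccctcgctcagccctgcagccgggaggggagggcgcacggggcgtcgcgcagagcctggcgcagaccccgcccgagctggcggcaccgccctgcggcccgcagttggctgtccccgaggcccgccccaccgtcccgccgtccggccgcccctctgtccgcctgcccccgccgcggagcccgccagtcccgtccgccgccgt
Hadha, chr5:30154931-30155230, minus strand: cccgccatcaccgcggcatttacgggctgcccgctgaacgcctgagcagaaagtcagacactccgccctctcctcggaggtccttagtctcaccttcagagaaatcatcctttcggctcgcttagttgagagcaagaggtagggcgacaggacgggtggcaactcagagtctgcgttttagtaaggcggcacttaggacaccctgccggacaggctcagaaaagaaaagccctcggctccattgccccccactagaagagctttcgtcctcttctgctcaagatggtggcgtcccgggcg
Acad11, chr9:104063474-104063773, plus strand: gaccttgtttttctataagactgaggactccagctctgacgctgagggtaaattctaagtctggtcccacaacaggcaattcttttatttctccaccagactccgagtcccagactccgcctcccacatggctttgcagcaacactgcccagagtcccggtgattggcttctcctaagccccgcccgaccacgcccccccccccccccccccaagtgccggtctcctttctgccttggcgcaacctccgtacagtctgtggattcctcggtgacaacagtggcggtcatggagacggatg
Among these 5 windows a DR1 match was found in that of Slc25a20, where AGGTGAAAGGTCG begins at base 7 after the start. DR1 matches lay in 3 of the 27 windows (Slc25a20, Echs1 and Etfa), and in 3.86% of all 32851 RefSeq windows. The estrogen-related receptor element TCAAGGTCA, searched on both strands without mismatches, was in 0 of the 27 windows and in 0.42% of all windows. The nuclear respiratory factor element, GCGCA and GCGC around any 1 base, was in 4 of the 27 (Acad10, Acad12, Etfb and Etfdh) and in 4.6% of all windows. These are matches of letters in a short window, and binding was not measured. The window of Hadha overlaps that of Hadhb by 228 bases, since these genes start close together on opposite strands.

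In the carnitine shuttle 2 of the 5 tested genes rose and 0 fell, with a median log2 change of 0.11, against 0.089 over all tested genes. For this and each later role, 4.00% of all tested genes rose and 1.95% fell. Cpt1a, the liver-type carnitine palmitoyltransferase 1 and the regulated entry step of mitochondrial oxidation, was at 71.6, 74.8, 74.9, 76.7 and 73.0 RPKM in KO 1, KO 4, KO 7, KO 8 and KO 17. It was at 54.8, 54.1, 58.7, 52.7 and 55.2 RPKM in WT 2, WT 9, WT 19, WT 86 and WT 89. Every KO-labelled library was well above every WT library, and the spread within each group was small. The log2 change was 0.43 ± 0.05 (SE), a 1.34-fold rise with a 95% interval of 1.24 to 1.45, and limma's adjusted p was 0.0012. Over 20 alternative settings the adjusted p ranged from 0.0010 to 0.021.

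The other carnitine palmitoyltransferase 1 genes gave no call. Cpt1b, the muscle-type gene, was at 0.18, 0.16, 0.15, 0.12 and 0.22 RPKM in the KO-labelled libraries in the order above, and at 0.17, 0.16, 0.20, 0.21 and 0.14 RPKM in WT libraries. It rested on 6 to 13 reads per library, was too low to be tested, and the groups overlapped. Cpt1c, the brain-type gene, was at 7.02, 7.07, 6.17, 7.87 and 7.33 RPKM in KO-labelled libraries and at 5.77, 7.78, 7.73, 7.35 and 6.30 RPKM in WT libraries. The Cpt1c groups overlapped throughout their range (log2 change 0.03 ± 0.10, limma adjusted p = 0.90). Cpt1a made up 90.6% to 92.2% of the summed RPKM of the 3 genes in KO-labelled libraries and 87.2% to 90.2% in the WT libraries.

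Slc25a20, the carnitine-acylcarnitine carrier of the inner membrane, was at 29.3, 33, 29.1, 29.9 and 31.0 RPKM in KO-labelled libraries and at 24.6, 26.8, 26.8, 27.1 and 23.2 RPKM in WT libraries. The groups did not overlap, with KO 7 the nearest of its group to the WT libraries. The log2 change was 0.24 ± 0.06 with a limma adjusted p of 0.047. The call was lost without any 1 of the 10 libraries, with log2 changes of 0.21 to 0.26 and adjusted p-values up to 0.095. Cpt2, which remakes the acyl-CoA inside the mitochondrion, averaged 29.0 ± 1.7 RPKM in KO-labelled libraries and 27.0 ± 3.4 RPKM in WT libraries. Crat, which handles short acyl groups, averaged 27.8 ± 3.4 RPKM in KO-labelled libraries and 30.9 ± 1.1 RPKM in WT libraries. Neither was called (limma adjusted p = 0.48 for Cpt2 and 0.25 for Crat).

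**Figure D2:**
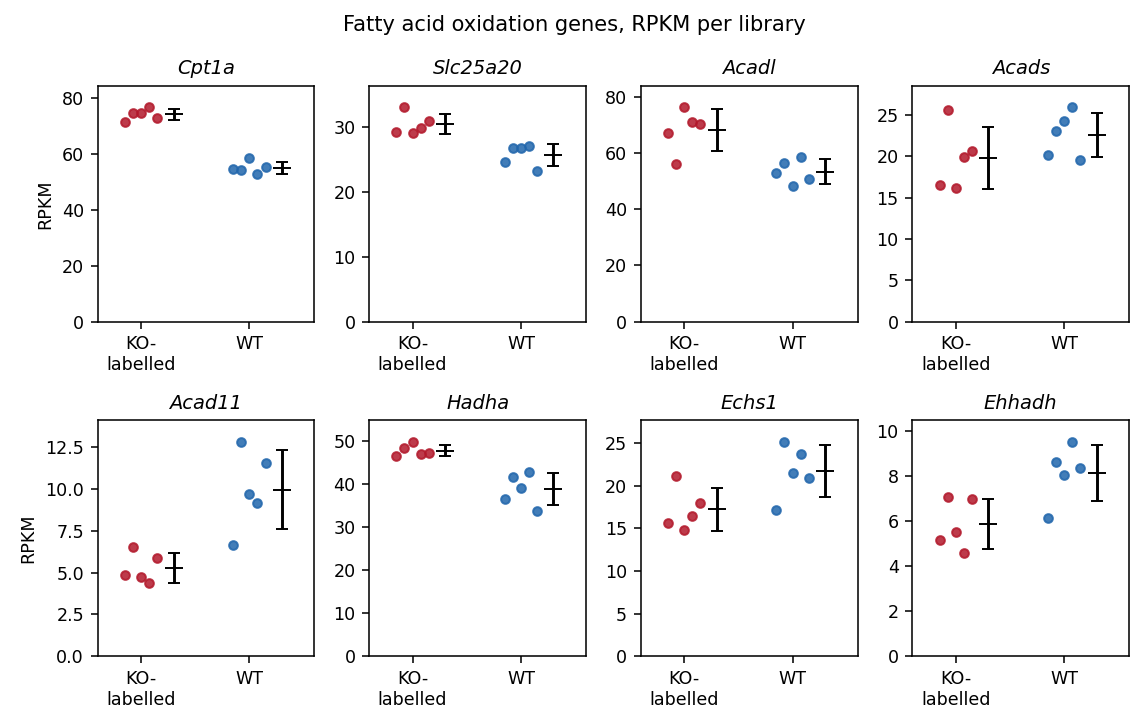
RPKM in each KO-labelled (red) and WT (blue) library for the 5 called genes and for Acads, Echs1 and Ehhadh, each axis starting at 0, with the group mean and SD as a bar beside the points. The groups do not overlap for Cpt1a, Slc25a20, Hadha and Acad11, and 1 KO-labelled library of Acadl lies among the WT libraries.

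Of the 8 acyl-CoA dehydrogenases, which catalyse the first step of each turn, 1 rose and 1 fell, and the median log2 change was -0.09. Acadl, the long-chain enzyme that mice rely on in mitochondria, was at 67.2, 56.2, 76.2, 70.9 and 70.3 RPKM in KO-labelled libraries and at 52.7, 56.6, 48.1, 58.7 and 50.9 RPKM in WT libraries. The groups overlapped because KO 4 fell below WT 9 and WT 86, while the other 4 KO-labelled libraries were above all WT libraries. The log2 change was 0.35 ± 0.09, a 1.27-fold rise, with a limma adjusted p of 0.048. Without KO 4 the log2 change was 0.41 (adjusted p = 0.018), and without any other single library the call was lost (log2 change 0.30 to 0.38, adjusted p up to 0.10).

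Acad11 moved the other way. It belongs to the same family and is reported to take part in the breakdown of hydroxylated fatty acids. Its level was 4.89, 6.52, 4.73, 4.39 and 5.91 RPKM in KO-labelled libraries and 6.63, 12.8, 9.71, 9.18 and 11.5 RPKM in WT libraries. The groups did not overlap, but WT 2 lay only just above KO 4. The log2 change was -0.84 ± 0.16, and limma's adjusted p was 0.019. The call was lost without KO 1 (log2 change -0.82, adjusted p = 0.054) and when WT 86 and WT 89, the mice with the highest animal numbers, were both left out (-0.79, adjusted p = 0.13).

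The remaining 6 dehydrogenases were not called, and their groups overlapped. Acadvl, the very-long-chain enzyme, had a log2 change of -0.13, Acadm, the medium-chain enzyme, -0.02, and Acads, the short-chain enzyme, -0.20. Acad9, which also serves in the assembly of respiratory complex I, had a log2 change of -0.05, and the less studied Acad10 and Acad12 had -0.0095 and -0.13. In the gene table the family ran in abundance from Acad12, at 1.59 to 2.29 RPKM in KO-labelled libraries and 1.88 to 2.18 RPKM in WT libraries, up to Acadl. There Acadl exceeded Acadm in each of the 10 libraries, but the transcripts of Acadm summed to more than those of Acadl, at a mean of 90.8 RPKM against 62.1 RPKM.

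The enzymes of hydration, the later dehydrogenation and thiolysis gave 1 rise among 5. Hadha, the α subunit of the trifunctional protein that carries out the later steps for long chains, was at 46.4, 48.4, 49.8, 47.1 and 47.2 RPKM in KO-labelled libraries and at 36.7, 41.6, 39.2, 42.9 and 33.8 RPKM in WT libraries. Every KO-labelled library was above every WT library. The log2 change was 0.30 ± 0.07, a 1.23-fold rise, with a limma adjusted p of 0.035. Leaving out WT 9 or WT 86 kept the call, and leaving out any other single library ended it, with log2 changes of 0.25 to 0.31 and adjusted p-values up to 0.076.

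Acaa2, the mitochondrial 3-ketoacyl-CoA thiolase, was the most abundant gene of this step in the gene table, though the lowest of the 5 by the sum of its transcripts in the transcript table. It was at 55.2, 89.5, 56.5, 70.1 and 71.5 RPKM in KO-labelled libraries and at 54.3, 66.3, 69.4, 65.5 and 64.8 RPKM in WT libraries. KO 4 was the highest library, and the groups overlapped (log2 change 0.08 ± 0.13). Echs1, the short-chain enoyl-CoA hydratase, averaged 17.2 ± 2.5 RPKM in KO-labelled libraries and 21.7 ± 3.1 RPKM in WT libraries. Its log2 change of -0.32 ± 0.12 did not pass the test (limma adjusted p = 0.12), but did in limma voom on reads recovered from the RPKM values (adjusted p = 0.040). Hadh, which oxidises short and medium 3-hydroxyacyl-CoAs, had a log2 change of -0.0042, and Hadhb, the β subunit beside Hadha, one of 0.18 (limma adjusted p = 0.29).

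The enzymes that prepare unsaturated fatty acids for the cycle had positive log2 changes in 3 of 3 cases, with 0 called. Their median was 0.20, where that of all tested genes was also positive, at 0.089. Eci1, an enoyl-CoA isomerase, was at 46.0, 55.3, 45.6, 53.6 and 53.5 RPKM in KO-labelled libraries and at 38.8, 55.7, 45.2, 45.8 and 41.9 RPKM in WT libraries. WT 9 was the highest of all libraries, WT 86 lay just above KO 7, and the groups overlapped. Eci2, the isomerase found in mitochondria and peroxisomes, and Decr1, the mitochondrial dienoyl-CoA reductase, each had a log2 change of 0.20, with limma adjusted p-values of 0.087 and 0.11.

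The electron transfer flavoprotein takes electrons from the acyl-CoA dehydrogenases, and none of its 3 genes was called. Etfb, its β subunit, was at 59.9, 117, 63.0, 72.9 and 77.4 RPKM in KO-labelled libraries and at 69.9, 96.0, 100.1, 88.8 and 63.4 RPKM in WT libraries. KO 4 was the highest and KO 1 the lowest, so the KO-labelled libraries enclosed the whole WT range. Etfa, the α subunit, had a log2 change of -0.07 and Etfdh, which passes the electrons on to ubiquinone, one of 0.17. The thioesterases, which free fatty acids from CoA, showed 0 calls in 2. Acot2, the mitochondrial one and the more abundant, was at 4.85, 8.43, 6.10, 6.24 and 6.60 RPKM in KO-labelled libraries and at 6.88, 8.10, 6.49, 6.71 and 7.16 RPKM in WT libraries. KO 4 was again the highest library and KO 1 the lowest, and the groups overlapped. Acot1, its cytosolic relative, had a log2 change of 0.01, which turned negative, to -0.06, under median-ratio scaling.

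None of the 6 peroxisomal enzymes was called, and their median log2 change was -0.08. Hsd17b4, the multifunctional protein that hydrates and dehydrogenates very long and branched chains, was the most abundant in both tables. It was at 49.5, 50.7, 50.1, 48.9 and 53.5 RPKM in KO-labelled libraries and at 49.0, 53.5, 43.1, 53.2 and 45.3 RPKM in WT libraries. The groups overlapped, and the KO-labelled libraries lay inside a wider WT range. Ehhadh, the other multifunctional protein of the peroxisome and a classic target of PPARα, had the largest change of the 6. It averaged 5.86 ± 1.12 RPKM in KO-labelled libraries and 8.13 ± 1.24 RPKM in WT libraries. Its log2 change of -0.45 ± 0.14 missed the threshold (limma adjusted p = 0.081), and passed it without WT 2 (-0.54, adjusted p = 0.044) and in limma voom (-0.55, adjusted p = 0.036). The log2 changes of Acox3, an acyl-CoA oxidase of branched chains, of the thiolases Acaa1a and Acaa1b, and of Decr2, the peroxisomal dienoyl-CoA reductase, were -0.05, -0.10, -0.12 and 0.0072.

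**Figure D3:**
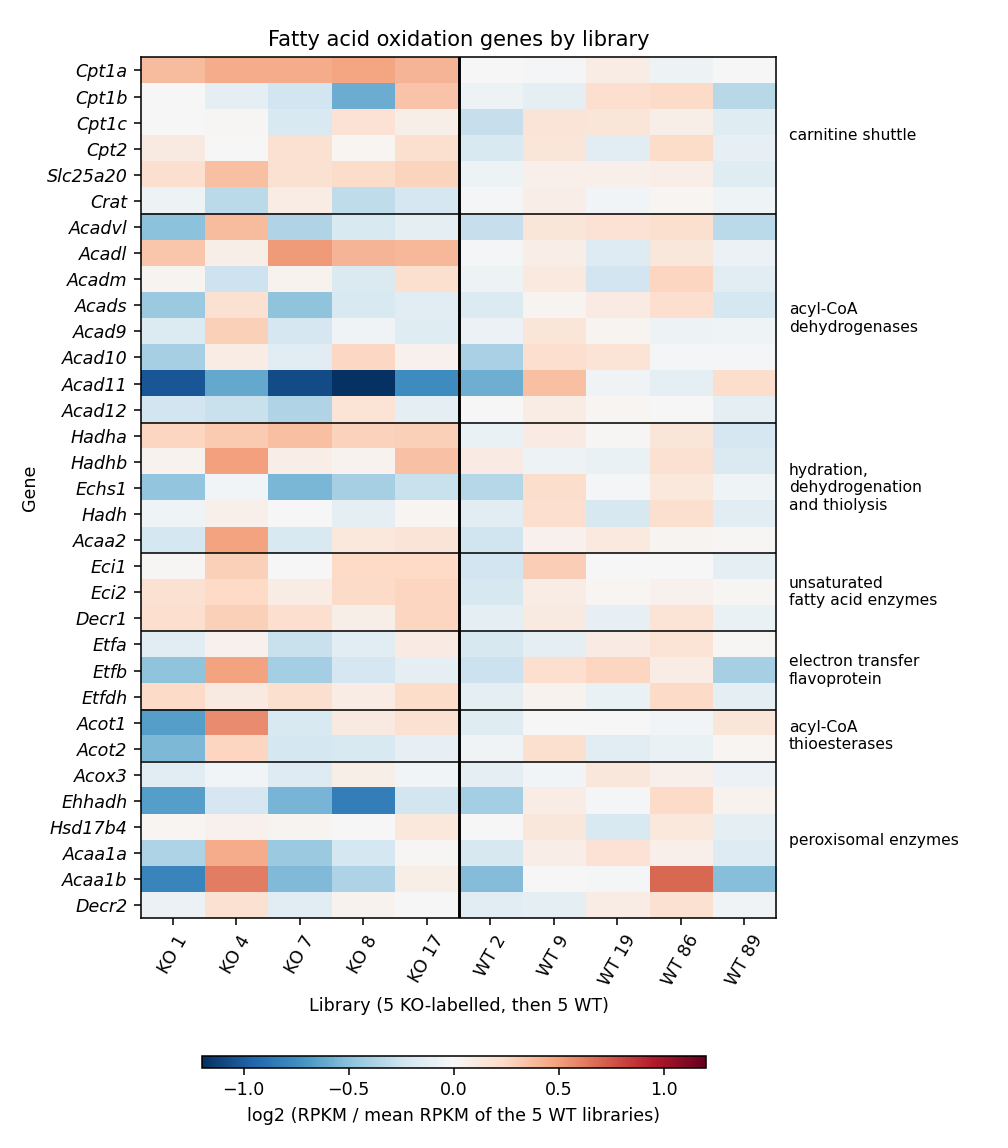
Log2 of the RPKM in each library over the mean of the 5 WT libraries, for all 33 genes in the order of their roles, with KO-labelled libraries left of the line and WT libraries right of it. Cpt1a, Slc25a20 and Hadha are raised in all KO-labelled libraries, Acad11 is low in all of them and in WT 2, and KO 4 is raised in many genes that KO 1 and KO 7 have low.

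Single libraries stood at the edge of their own group for many members. Among the KO-labelled libraries KO 4 was the highest for 18 of the 32 tested members (56.2%, against 27.7% of all tested genes), KO 1 was the lowest for 10 (31.2%, against 22.4%), and KO 7 was the lowest for 12 (37.5%, against 29.9%). Among the WT libraries WT 2 was the lowest for 18 members (56.2%, against 20.2% of all tested genes), and WT 86 was the highest for 14 (43.8%, against 20.5%). KO 1, KO 4, WT 2 and WT 86 also stood out for markers of other tissues. Alb, a hepatocyte marker, was highest in KO 4, at 144 RPKM, and lowest in WT 2, at 4.91 RPKM. It was at 119 RPKM in KO 17, which was the highest for 5 members. Ucp1, a brown adipocyte marker, was highest in WT 86, at 13.4 RPKM, and next in KO 7, at 5.70 RPKM. Ckm, a skeletal muscle marker, was highest in KO 1, at 10.9 RPKM, and next in KO 4, at 6.19 RPKM. It was at 0.079 RPKM in KO 7. Thus KO 1 and KO 4 were both high in Ckm but stood at opposite edges for many members. Whether these levels bear on the members was not tested.

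Ratios within a library, chosen after the values were seen and given without a test, set the called genes beside other members. Acadl over Acad11 was 8.62 to 16.1 in KO-labelled libraries and 4.41 to 7.95 in the WT libraries. Hadha over Echs1 was 2.29 to 3.35 in KO-labelled libraries and 1.62 to 2.14 in the WT libraries, and Hadha over Ehhadh was 6.77 to 10.3 in KO-labelled libraries and 4.05 to 5.97 in the WT libraries. These 3 ratios did not overlap between the groups, and each sets a called rise over a gene with a negative log2 change. Acadl over Acads, at 2.20 to 4.70 in KO-labelled libraries and 1.99 to 2.62 in the WT libraries, did overlap. So did Cpt1a over Cpt2, at 2.37 to 2.80 in KO-labelled libraries and 1.67 to 2.39 in the WT libraries. Hadhb over Hadha also overlapped, at 0.068 to 0.094 in KO-labelled libraries and 0.074 to 0.094 in the WT libraries.

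The genes that surround and control oxidation moved mostly downward where they were called. Of 91 listed genes that are not among the 33, 79 were tested. They were listed with earlier results of these data known, so the shares below are no test of the list. Of these 2 rose (2.53%, against 4.00% of all tested genes) and 13 fell (16.5%, against 1.95%), and their median log2 change was -0.02. The same shares over all tested genes, 4.00% and 1.95%, stand beside the counts of each smaller list below. The count that fell was 7 to 13 without 1 library. It was 7 without KO 1, KO 8 or WT 86, and 8 without KO 7 or WT 9. It was 4 (Acaca, Acacb, Eci3 and Acsm5) when WT 86 and WT 89 were both left out.

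The strongest falls were in the enzymes that make malonyl-CoA, the inhibitor of carnitine palmitoyltransferase 1. Acaca, the cytosolic acetyl-CoA carboxylase, averaged 7.38 ± 0.36 RPKM in KO-labelled libraries and 31.6 ± 8.4 RPKM in WT libraries (log2 change -1.99 ± 0.16, limma adjusted p = 6.1e-05). Acacb, the form at the outer mitochondrial membrane, averaged 6.29 ± 1.35 RPKM in KO-labelled libraries and 18.4 ± 5.3 RPKM in WT libraries (log2 change -1.45 ± 0.21, adjusted p = 0.0039). The other 7 genes of this list, malonyl-CoA decarboxylase and subunits of AMP-activated protein kinase, were not called. Ppara, the nuclear receptor that drives oxidation genes in liver, was 1 of the 7 tested regulators and the only one called. It was low in both groups, at 1.00 ± 0.19 RPKM in KO-labelled libraries and 2.33 ± 0.42 RPKM in WT libraries (log2 change -0.91 ± 0.13, limma adjusted p = 0.0042). Its call was lost when WT 86 and WT 89 were both left out (log2 change -0.86, adjusted p = 0.054).

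Peroxisomal genes outside the 33 also included called falls. Among 19 genes of peroxisome biogenesis and abundance 4 fell and 0 rose, where 1.95% of all tested genes fell and 4.00% rose. A negative log2 change was seen in 16 of the 19, with a median of -0.12, against 0.089 over all tested genes. Pex16, which brings membrane proteins into peroxisomes, averaged 20.5 ± 4.6 RPKM in KO-labelled libraries and 37.7 ± 6.3 RPKM in WT libraries (log2 change -0.87, limma adjusted p = 0.011). Cat, the catalase that removes hydrogen peroxide made by peroxisomal oxidation, averaged 133 ± 16 RPKM in KO-labelled libraries and 204 ± 28 RPKM in WT libraries (-0.61, adjusted p = 0.016). The calls of Pex16 and Cat held without any 1 library, and were lost when WT 86 and WT 89 were both left out (log2 change -0.89 with adjusted p = 0.054 for Pex16, and -0.55 with adjusted p = 0.13 for Cat). Pxmp2, a peroxisomal membrane channel, fell by 0.65 on the log2 scale and Pex11a, a peroxisome division factor, fell by 0.42, with limma adjusted p-values of 0.035 and 0.042.

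Of 14 tested genes of other peroxisomal fatty acid metabolism 2 fell. Abcd2, an importer of very long acyl-CoAs, had a log2 change of -0.45 (limma adjusted p = 0.044) and Hacl1, the lyase of α-oxidation, one of -0.41 (adjusted p = 0.043). Several of these peroxisomal calls depended on which libraries entered: of the 10 fits without 1 library, Pxmp2 was called in 3 (those without KO 4, KO 17 or WT 2), Hacl1 in 2 (without KO 4 or WT 2), Pex11a in 2 (without KO 17 or WT 2) and Abcd2 in 1 (without WT 19), each with a negative log2 change.

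In the list of other acyl-CoA enzymes 1 of 15 tested genes rose and 3 fell. Acadsb, the short/branched-chain dehydrogenase of isoleucine breakdown, averaged 44.4 ± 3.1 RPKM in KO-labelled libraries and 29.5 ± 4.7 RPKM in WT libraries (log2 change 0.59 ± 0.11, limma adjusted p = 0.013). Acsm5, a medium-chain acyl-CoA synthetase, had a log2 change of -1.30 (adjusted p = 0.0047), Eci3, an isomerase related to Eci2, one of -1.16 (adjusted p = 0.0040), and Acsm3, a relative of Acsm5, one of -0.77 (adjusted p = 0.044). Acsm3 was called in 2 of the 10 fits without 1 library, those without KO 17 or WT 2. Of 6 tested ketone body genes 1 fell. It was Aacs, which activates acetoacetate for lipid synthesis, at 23.0 ± 5.2 RPKM in KO-labelled libraries and 50.2 ± 15.9 RPKM in WT libraries (log2 change -1.08, limma adjusted p = 0.021). The Aacs call was lost without KO 1, KO 8 or WT 86, where the log2 change was between -1.23 and -0.92.

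None of 5 tested carnitine supply genes was called, and the most abundant, Aldh9a1 of carnitine synthesis, averaged 27.1 ± 1.5 RPKM in KO-labelled libraries and 27.4 ± 0.7 RPKM in WT libraries. Of 4 tested PPARα target genes outside oxidation 1 rose. It was Angptl4, a secreted inhibitor of lipoprotein lipase, at 84.6 ± 4.2 RPKM in KO-labelled libraries and 57.8 ± 9.6 RPKM in WT libraries (log2 change 0.56 ± 0.11, limma adjusted p = 0.017).

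**Figure D4:**
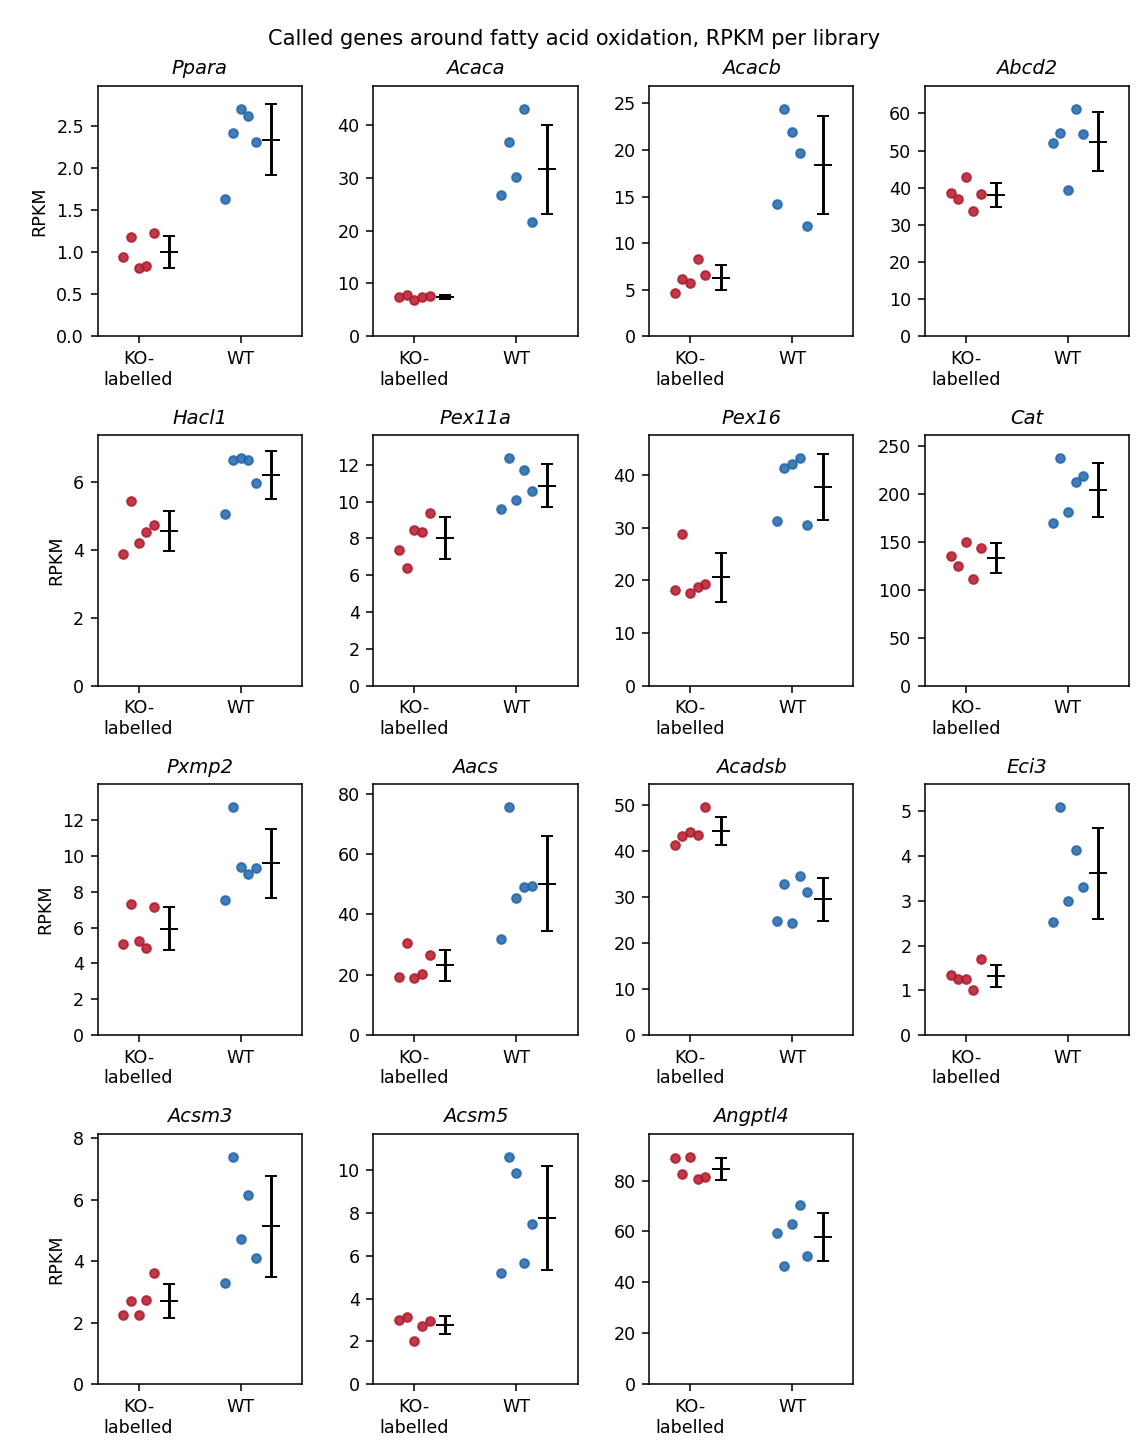
RPKM in each KO-labelled (red) and WT (blue) library for the 15 called genes that surround fatty acid oxidation, each axis starting at 0, with the group mean and SD as a bar beside the points. Acadsb and Angptl4 are higher in KO-labelled libraries and the other 13 lower, with Acaca at 7.38 ± 0.36 RPKM in KO-labelled libraries and 31.6 ± 8.4 RPKM in WT libraries.

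Among the cells that could carry these RNAs, some had markers that differed between the groups, and others had none called. Over all tested genes 4.00% rose and 1.95% fell. White adipocyte markers had a median log2 change of -1.37, and Retn, Cfd, Cidec and Lipe fell most. Monocyte and neutrophil markers summed to 441 to 804 RPKM in KO-labelled libraries and 186 to 362 RPKM in WT libraries, and 3 of 6 rose (S100a9, Cxcr2 and Ccr2). Of fibroblast and progenitor markers 1 of 6 rose (Lum), of macrophage markers 1 of 6 (Itgam), while 2 of 5 smooth muscle and pericyte markers (Mcam and Cspg4) and 1 of 5 endothelial markers (Kdr) fell. Of tissues rich in oxidation genes, brown and beige adipocyte markers summed to 25.8 to 53.5 RPKM in KO-labelled libraries and 18.9 to 90.7 RPKM in WT libraries, and 1 of 4 tested (Kcnk3) fell. Skeletal muscle markers, led by Acta1, summed to 2.50 to 86.0 RPKM in KO-labelled libraries and 17.6 to 42.5 RPKM in WT libraries, with 0 of 3 called. Hepatocyte markers, led by Alb, summed to 13.0 to 204 RPKM in KO-labelled libraries and 5.82 to 94.5 RPKM in WT libraries, with 0 of 6 called. None of the tested mesothelial (5), T and NK cell (4), B and plasma cell (4), ovarian and uterine (2) or mammary (2) markers was called, led by Upk3b, Nkg7, Jchain, Star and Krt18, and Csn2 was listed at 0 in every library. The part of these cell types in the values of the 33 genes was not tested.

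The transcript table was read for the same genes. Of 144 transcripts of the 33 genes 121 were tested, and 1 was higher and 1 lower (limma), where 0.0922% of all 44475 tested transcripts were higher and 0.452% lower. The Cpt1a transcript ENSMUST00000025835 averaged 50.8 ± 2.0 RPKM in KO-labelled libraries and 39.0 ± 1.5 RPKM in WT libraries (log2 change 0.38, limma adjusted p = 0.028). The Acad11 transcript ENSMUST00000047799 averaged 11.4 ± 2.0 RPKM in KO-labelled libraries and 24.4 ± 5.5 RPKM in WT libraries (log2 change -1.05, adjusted p = 0.038). The leading transcripts of Hadha, Slc25a20 and Acadl were not called (limma adjusted p = 0.26, 0.44 and 0.43). For those of Hadha and Slc25a20 all KO-labelled libraries were above all WT libraries, but only just. The nearest libraries were KO 4 at 62.3 RPKM and WT 86 at 62.0 RPKM for Hadha. For Slc25a20 they were KO 1 at 23.45 RPKM and WT 19 at 23.44 RPKM. The leading Hadha transcript is annotated as a processed transcript, not as protein-coding.

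For some members the gene table and the transcript table gave unlike levels. The gene table put Hadhb at a mean of 3.47 RPKM over the 10 libraries, while its transcripts summed to 71.6 RPKM, so the gene value was 4.84% of the sum. Of 14291 tested genes with transcripts, 1.17% had a lower share, and the median share was 75.4%. In GENCODE M21, 18.1% of the 50-base stretches of Hadhb exons also occur in Gm13910. In the gene table Hadhb stood at 0.07 to 0.09 of the level of its partner Hadha in every library of both groups. Its transcript sum averaged 71.3 RPKM in KO-labelled libraries and 71.9 RPKM in WT libraries, so both its level and its positive change are uncertain. Eci2 stood at 21.0% of its transcript sum, which averaged 112 RPKM in KO-labelled libraries and 98.9 RPKM in WT libraries. Cpt1b stood at 9.51% of its transcript sum, and 81.4% of its exon bases lie within Gm44502. Of the called members, Acad11 stood at 30.2% of its transcript sum, where 14.1% of genes had a lower share. Hadha stood at 41.2%, where 23.4% had a lower share, and Cpt1a, Slc25a20 and Acadl at 144%, 123% and 97.9%.

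Other members share sequence with a neighbour or relative in the same annotation. Etfb has 58.2% of its exon bases within overlapping genes, mainly Gm45233, and Acadvl 42.9% within Dvl2 on the other strand. The sources used here do not say whether reads were counted by strand, so those of Acadvl and Dvl2 may not be told apart. Acot2 shares 24.5% of its 50-base stretches with Acot1, Acaa1b 30.5% with Acaa1a, and Acad10 16.8% with Acad12. Of the called members, Acadl shared 0% and Acad11 at most 6.6% by either measure.

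**Figure D5:**
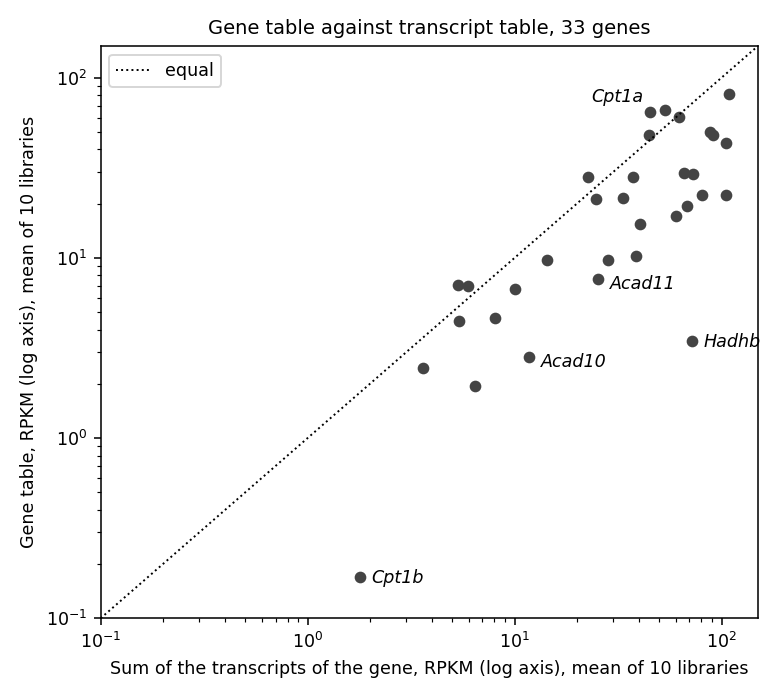
Level of each of the 33 genes in the gene table against the sum of its transcripts in the transcript table, both as mean RPKM over the 10 libraries on log axes, with a dotted line where they are equal. Hadhb lies far below the line, at 3.47 RPKM against 71.6 RPKM, and Cpt1b is the lowest point.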

How the data were processed

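RNA of gonadal white adipose tissue from 10 mice was sequenced, 5 KO-labelled and 5 WT, each library named by the animal number in its title. The RPKM values of genes and of transcripts were deposited by the authors, and the unit of the transcript table is known from its file name only. The submitters' processing notes name bcl2fastq, STAR 2.0.4b1, Subread and featureCounts 1.4.52. The genome build, annotation and strand setting behind the values were not given in the sources used here.

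Identifiers repeated with equal values were used once, which left 40503 genes and 84046 transcripts. Genes with at least 0.5 RPKM in at least 5 libraries were fitted as log2(RPKM + 0.5) with limma 3.58.1 in R 4.3.3 (eBayes with trend and robust, statmod 1.5.0), 2-sided, with calls made below a Benjamini-Hochberg adjusted p of 0.05 over all 17038 tested genes. Every adjusted p is from limma. Folds on this scale understate the change of low genes, and SE is limma's moderated SE. The fit was tested on simulated data.

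The RPKM steps gave whole reads (tolerance 0.001 reads) in 100% of 25122 genes, those above 0 in 3 or more libraries, and served for depth and for limma voom with trimmed-mean (TMM) scaling. Further alternatives were median-ratio scaling, quantile normalization, array weights, plain eBayes (no trend, not robust), a filter at 1 RPKM or none, pseudocounts of 0.1 and 1, leaving out each library, and leaving out WT 86 and WT 89 together.

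The 33 genes, the pathway lists and the cell type lists were chosen with earlier results of these data known, and 1 listed pathway gene is not reported here. Values in every library are given for called members, members without overlap, the most abundant member of each role and the carnitine palmitoyltransferase 1 genes. Of other lists the called genes are named, up to 4 with the largest change, or the most abundant one. Echs1, Ehhadh and the ratios were singled out after their values were seen. Promoters are from RefSeq (GRCm38.p6), and shared exon sequence was computed in GENCODE M21. The limma p-values set the difference of the group means against the spread between these animals, as moderated over all tested genes.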

Additional observations from a re-analysis of the deposited data

Results flagged for a closer look

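Of 68 groups of 5 libraries examined (34 genes in each group), 1 held a library far from the others. Acad9, a dehydrogenase that also serves complex I assembly, was at 5.53 RPKM in KO 4, while the other KO-labelled libraries lay between 3.95 and 4.41 RPKM. Chance alone is expected to mark about 1 in 20 such groups.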

How the results depend on the processing

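Of the 5 called members, Cpt1a passed under all 20 alternatives (log2 change 0.34 to 0.45), Acad11 under 18 (-0.98 to -0.74), Hadha under 7, Acadl under 5 and Slc25a20 under 4, each without a change of sign. Against 4 members higher, 1 was called with no filter, with median-ratio scaling, with quantile normalization, with voom and without WT 86 and WT 89 together, 2 with plain eBayes, and 1 to 2 without 1 library. Against 1 lower, voom called 3, leaving out WT 86 and WT 89 called 0, and leaving out 1 library called 0 to 2. Over all genes the 681 higher became 292 with no filter, 103 with median-ratio scaling, 149 with quantile normalization, 145 with voom, 70 without WT 86 and WT 89, and 194 to 697 without 1 library, and the 332 lower became 137 without WT 86 and WT 89 and 206 to 316 without 1 library. Of the surrounding genes 4 were higher with a filter at 1 RPKM and with array weights, against 2, and 8 were lower with no filter, 4 without WT 86 and WT 89 and 7 to 13 without 1 library, against 13. The difference of Med19 means turned to -0.31 RPKM under median-ratio scaling and ran from -0.21 to 0.40 without 1 library.

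Signs that turned belonged to members near 0 that were never called. Under median-ratio scaling, quantile normalization and voom, in that order, the log2 change was -0.060, -0.044 and -0.063 for Cpt1c, -0.011, -0.0046 and -0.0064 for Acaa2, -0.063, -0.039 and -0.053 for Acot1, -0.038, -0.036 and -0.035 for Hsd17b4, and -0.080, -0.073 and -0.078 for Decr2. With array weights it was -0.012 for Acot1 and -0.0015 for Decr2. Without WT 86 and WT 89 it was 0.026 for Acadm and 0.026 for Hadh. Without 1 library it ran from -0.037 to 0.071 for Cpt1c, -0.075 to 0.046 for Acadm, -0.088 to 0.068 for Acad10, -0.048 to 0.047 for Hadh, -0.021 to 0.15 for Acaa2, -0.10 to 0.15 for Acot1, -0.30 to 0.060 for Acaa1b, and -0.037 to 0.051 for Decr2. The cause of these shifts was not tested. No paired analysis was made, because the labels give nothing by which KO-labelled and WT mice could be paired. Precision is limited by 5 animals a group and, for Cpt1b, by 6 to 13 reads a library.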

Other observations

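Some genes beside fatty acid oxidation that did not pass the test, or were too low for it, are given as values. Fgf21, a hormone whose gene is a PPARα target in liver, was below the filter, at 0.35 to 0.80 RPKM in KO-labelled libraries and 0.067 to 0.22 RPKM in WT libraries, and the groups did not overlap. Acat1, the thiolase of ketone body and isoleucine breakdown, averaged 42.7 ± 2.4 RPKM in KO-labelled libraries and 33.9 ± 4.2 RPKM in WT libraries, with every KO-labelled library above every WT library and a limma adjusted p of 0.052. Pdk4, the kinase that restrains glucose oxidation when fatty acids are burned, was at 15.4 to 22.3 RPKM in KO-labelled libraries and 10.5 to 16.3 RPKM in WT libraries, and the groups overlapped. The choice of these 3 genes, all higher on average in KO-labelled libraries, followed a look at their values. Every KO-labelled library was above every WT library for 6.96% of all tested genes. Other uncalled genes of the lists were lower, among them Scp2, Ppargc1b and Pex5. Their log2 changes were -0.31, -0.42 and -0.53, with limma adjusted p-values of 0.067, 0.080 and 0.092.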
